A study of Homo sapiens with 2 samples.

Results

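Homologous recombination and DNA crosslink repair were described through 39 genes, taken as every probe set of the expression table that is annotated to 1 of these gene symbols alone. Of the 39 genes, 35 had such probe sets, 105 in all, and 34 had at least 1 probe set bright enough to be retained, out of 11272 genes measured in the same way. BRCA2, FANCA, FANCD2 and RBBP8 are not analysed here. RAD51B, which forms complexes with RAD51C and XRCC2, had 4 probe sets that were all dim, with differences from -0.31 to 0.06 on the log2 scale, and is left out of the counts of measured genes. The 39 symbols include XRCC1, XRCC4, XRCC5 and XRCC6, which by textbook knowledge serve single-strand break repair and end joining and not recombination.

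Anti-miR cells were GFP-SAS cells, a line of tongue squamous cell carcinoma that carries green fluorescent protein, given 25 nM of an antisense oligonucleotide of LNA and DNA directed at miR-361-3p for 24 h. They were set against the same line given 25 nM of a non-target LNA/DNA oligonucleotide for the same time (control cells). Each treatment was measured on 1 array, so no replicate error exists and no p-value is given. The sources used here do not say whether the line is a clone or what drives its green fluorescent protein.

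Homologous recombination copies an intact sister strand to mend a broken chromosome. The MRN complex and nucleases trim the broken ends, the kinases ATM and ATR signal the damage to CHEK2 and CHEK1, and BRCA1, PALB2 and BRCA2 prepare the single strand to search for its intact copy, with help from a family of mediator proteins that includes XRCC2 and XRCC3. The Fanconi anemia pathway opens crosslinks between DNA strands: a core complex with the ubiquitin ligase FANCL marks the FANCI and FANCD2 pair, which then calls nucleases and recombination proteins to the stalled fork. Squamous carcinomas of the head and neck are among the tumours that arise often in people born with Fanconi anemia.

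The inhibited strand is shown with its partner from the same hairpin, since the seed (bases 2 to 8, in capitals) decides which messages a microRNA pairs with. Both sequences are from RefSeq on GRCh38.p14, where miR-361-3p lies at chrX:85903641-85903663 and miR-361-5p at chrX:85903681-85903702, both on the minus strand. The oligonucleotide's own sequence was not at hand.
miR-361-3p: uCCCCCAGgugugauucugauuu
miR-361-5p: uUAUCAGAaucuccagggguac
The strands share no seed, as their capitals show, and the label names miR-361-3p as the target.

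Expression is given on the log2 scale, 1 value per probe set, as the authors made it with RMA. Probe sets at or above the median of either array (4.64 for anti-miR cells, 4.63 for control cells) were retained and the rest are called dim. The value of a gene is the mean of its retained probe sets, a difference is its value in anti-miR cells minus that in control cells, and a gene is counted as higher or lower from 1.5-fold. Nonspecific control probe sets, which should match no human message, reached 7.16 on the anti-miR array, against 6.87 on the control array. Signal below these levels may be background, so a fold that rests on it is not an exact size. The poly-A spike controls, which go through labelling with the sample, differed by 0.32 ± 0.19 (SD over 12 probe sets), so an offset of labelling and a gene difference of that size cannot be told apart. Of 7 squamous epithelial markers with probe sets, SFN (10.6 in anti-miR cells, 10.5 in control cells), KRT5 (8.89 and 9.08), CDH1 (8.64 and 9.18), PKP3 (6.93 and 6.55) and DSG3 (5.52 and 5.40) lay above the medians and within 1.5-fold. EGFR was 2.78-fold lower (4.73 in anti-miR cells, 6.20 in control cells, 5 retained probe sets), and KRT14 lay below the median of both arrays. The gene values of PKP3, DSG3 and EGFR lay within the nonspecific range on both arrays. Averaged over all their probe sets, only SFN and KRT5 of the 7 squamous markers were above that range on both arrays. CDH1 then stood at 6.31 in anti-miR cells and 6.53 in control cells. Of 10 leukocyte, endothelial and fibroblast markers 8 had only dim probe sets, and PECAM1 (5.35 and 5.03) and VWF (5.11 and 4.69), both endothelial, had 1 retained probe set each, within the nonspecific range. Averaged over all their probe sets, the 10 markers lay at or below 4.07 in anti-miR cells and 3.91 in control cells.

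Most repair genes that differed were lower after anti-miR treatment. Of 34 measured members, 12 were at least 1.5-fold lower and 3 at least 1.5-fold higher, while 19 lay within 1.5-fold. Lower members made up 35.3%, against 14.2% of all measured genes, and higher members 8.82%, against 8.23%. At 2-fold, 8 members were lower (23.5%, against 6.98% of all genes) and 0 were higher (1.23% of all genes were). The median member differed by -0.45, and the median of all measured genes by 0.13. Relative to that median gene, 16 members were lower (17.3% of all genes were) and 1 was higher (4.43% of all genes were). With dim probe sets kept in, 9 of 35 members were lower (25.7%, against 7.37% of 18239 genes) and 3 were higher (8.57%, against 4.4%).

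The 12 lower members were WRN, XRCC4, FANCM, BRIP1, ATR, BARD1, FANCL, BLM, XRCC5, CHEK2, ATM and BRCA1. The 3 higher members were XRCC3, PALB2 and EXO1. The threshold is 0.585 on the log2 scale, and BRCA1 (-0.587), ATM (-0.590) and EXO1 (0.587) lay just past it, with FANCI (-0.574) and FANCB (-0.570) just short. Of the 70 retained probe sets of members, 48 were lower and 22 higher in anti-miR cells, with 24 past 1.5-fold downward against 4 upward. Probe sets of 1 gene can share probes and are not independent.

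**Figure D1:**
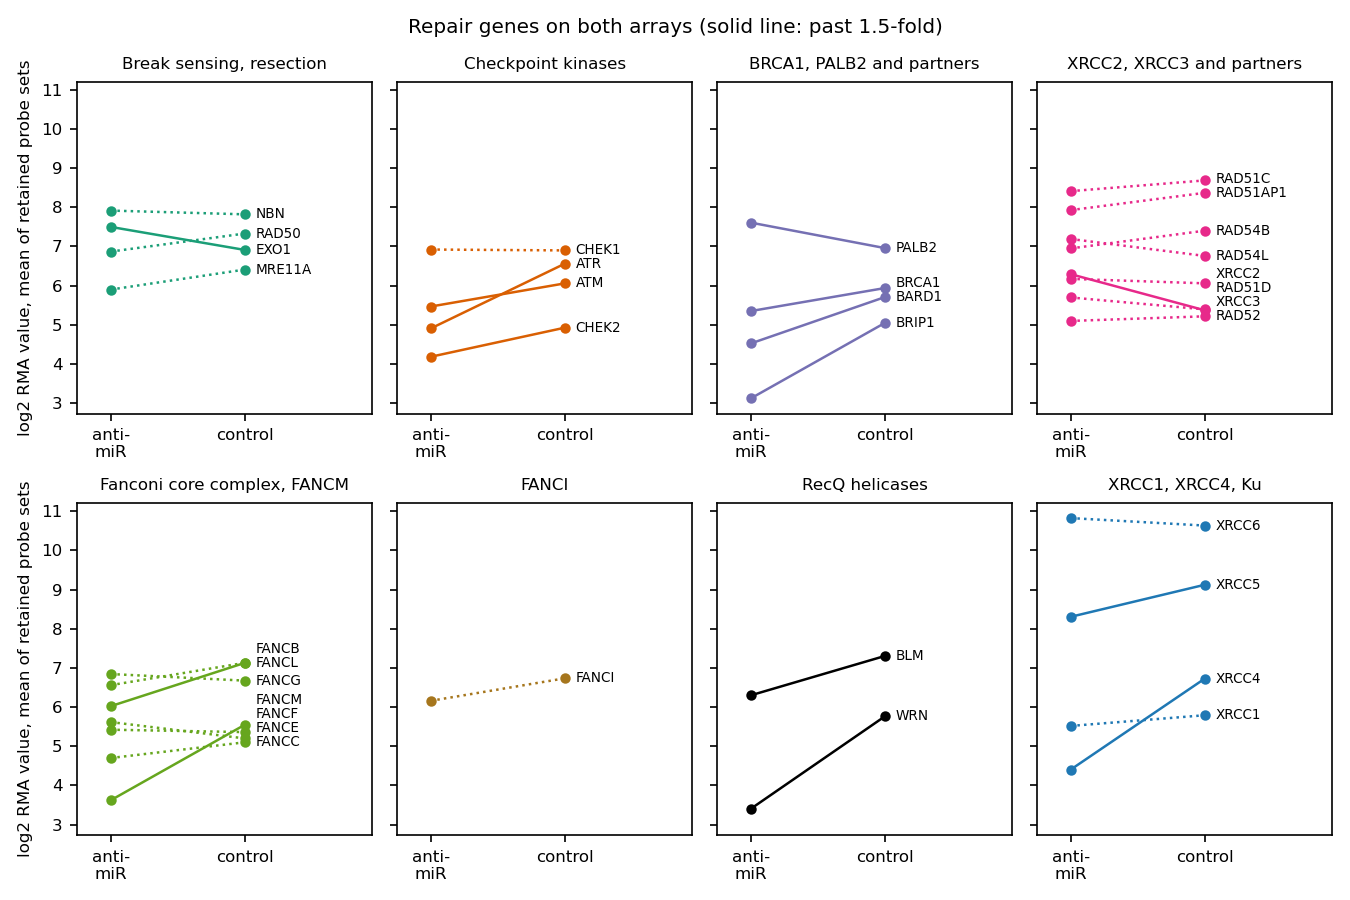
Log2 RMA value of each measured repair gene (mean of its retained probe sets) on the anti-miR array, left, and the control array, right, in 1 panel per role, with solid lines for genes past 1.5-fold. The lines of WRN, XRCC4, FANCM, BRIP1 and ATR are the steepest, and NBN, CHEK1 and XRCC6 run nearly level; heights of different genes cannot be compared, since they are read by different probes.

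In break sensing and end resection only EXO1 passed 1.5-fold. The MRN complex, which binds broken ends and activates ATM, is made of RAD50, MRE11A and NBN. RAD50, its zinc-hook ATPase, read 5.46, 7.70 and 7.44 in anti-miR cells, against 6.05, 8.02 and 7.92 in control cells, a difference of -0.46 ± 0.14 (SD over 3 probe sets). All of its probe sets were lower after anti-miR treatment, by less than 1.5-fold on average. MRE11A, the nuclease, listed as MRE11 in the annotation, differed by -0.51 ± 0.27 (SD over 3 probe sets), with 5.90 in anti-miR cells and 6.41 in control cells. NBN, the adaptor, differed by 0.10 ± 0.13 (SD over 5 probe sets) and was thus within the spread of its own probe sets. EXO1, a nuclease of long-range resection, read 7.50 in anti-miR cells and 6.91 in control cells (1 probe set, a difference of 0.59). Its value was above the nonspecific range on both arrays. The count in this group was 1 higher and 0 lower of 4 measured genes.

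The checkpoint kinases divided. ATR, the kinase that senses single-stranded DNA, read 4.91 in anti-miR cells and 6.56 in control cells, which is 3.14-fold lower (1 probe set). CHEK1, the kinase that ATR activates, had 6 probe sets between 6.60 and 7.19 in anti-miR cells and between 6.55 and 7.10 in control cells. Its difference was 0.02 ± 0.14 (SD over 6 probe sets), so the ranges of the arrays overlapped widely. ATM, the kinase that responds to double-strand breaks, read 5.47 in anti-miR cells and 6.06 in control cells at its 1 retained probe set. Its 4 dim probe sets ranged from -0.24 to 0.13, and with them the mean difference was -0.16, short of 1.5-fold. CHEK2, the kinase that ATM activates, read 4.10 and 4.27 in anti-miR cells, against 4.84 and 5.02 in control cells, which is 1.67-fold lower. Both anti-miR values lay below that array's median, and a further, dim probe set differed by 0.36 in the other direction. With it the mean difference of CHEK2 was -0.37, short of 1.5-fold.

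BRCA1 and its partners held both directions. BRIP1, a helicase also known as FANCJ that binds BRCA1, read 3.12 in anti-miR cells and 5.05 in control cells (3.80-fold lower, 1 retained probe set). Its dim probe set was lower too, by 1.15 on the log2 scale. BARD1, the obligate partner of BRCA1 in its ubiquitin ligase, read 4.52 in anti-miR cells and 5.71 in control cells (2.27-fold lower, 1 probe set). BRCA1 read 6.61, 5.52, 4.71 and 4.57 in anti-miR cells, against 7.48, 6.26, 4.95 and 5.06 in control cells. Each of these probe sets was lower, from -0.87 to -0.24, with a mean of -0.59 ± 0.28 (SD over 4 probe sets); 3 of them are of the type that can bind related messages. A further dim probe set differed by -0.18, and with it BRCA1 differed by -0.51, short of 1.5-fold. PALB2, which bridges BRCA1 and BRCA2, stood apart from its partners at 7.61 in anti-miR cells and 6.96 in control cells (1.57-fold higher, 1 probe set).

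The mediators that include XRCC2 and XRCC3, with their partners, stayed closest to no difference, with a median of -0.0019 over 8 measured genes, 1 higher and 0 lower. XRCC3, a mediator that pairs with RAD51C, read 6.29 in anti-miR cells and 5.37 in control cells (1.89-fold higher, 1 probe set). Both values lay within the nonspecific range, so the fold is not an exact size. RAD51C, which belongs to both mediator complexes, read 8.14, 8.50 and 8.59 in anti-miR cells, against 8.08, 8.97 and 9.01 in control cells. Its first probe set was slightly higher and the other two lower, for a difference of -0.27 ± 0.29 (SD over 3 probe sets). RAD51AP1, which stimulates strand pairing, read 8.70, 7.49, 8.66 and 6.86 in anti-miR cells, against 9.18, 7.82, 9.08 and 7.40 in control cells. All 4 probe sets were lower by a similar amount, -0.44 ± 0.09 (SD), short of 1.5-fold. The motor proteins RAD54L and RAD54B, which act in strand exchange, differed by 0.43 and -0.45 (1 retained probe set each). RAD51D and XRCC2, partners within 1 mediator complex, differed by 0.30 ± 0.11 (SD over 3 probe sets) and 0.11 ± 0.22 (SD over 2). RAD52, an annealing protein, differed by -0.12 at the 1 retained of its 12 probe sets.

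In the Fanconi pathway the ligase and the translocase were lower and most other subunits were not. FANCL, the ubiquitin ligase of the core complex, read 5.17, 7.86 and 5.04 in anti-miR cells, against 6.60, 9.04 and 5.75 in control cells. All 3 probe sets were lower, from -1.43 to -0.71, and the gene was 2.15-fold lower (-1.10 ± 0.36, SD over 3 probe sets). Its brightest probe set was above the nonspecific range on both arrays. FANCM, the translocase that anchors the core complex to DNA, read 3.62 in anti-miR cells and 5.55 in control cells at its 1 retained probe set, 3.80-fold lower. Its 2 dim probe sets differed by -1.02 and -0.42, and with them FANCM was 2.17-fold lower. FANCI, the partner of FANCD2, read 6.77, 6.85 and 4.86 in anti-miR cells, against 7.50, 7.71 and 5.00 in control cells. The difference, -0.57 ± 0.39 (SD over 3 probe sets), fell short of the threshold, with the dimmest probe set at -0.13. FANCB differed by -0.57 and FANCC by -0.40 (1 retained probe set each). FANCE, FANCG and FANCF, core subunits encoded by short genes, differed by 0.42 ± 0.31 (SD over 2 probe sets), 0.17 (1 probe set) and 0.06 ± 0.26 (SD over 3). The core group, counted with FANCM, thus held 2 lower and 0 higher of 7 measured genes.

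Both RecQ helicases among the members were lower. Outside the members, the RecQ helicases RECQL and RECQL5 stayed within 1.5-fold. They differed by 0.01 ± 0.06 (SD over 5 probe sets) and 0.15 ± 0.10 (SD over 3 probe sets). WRN, the helicase mutated in Werner syndrome, read 3.40 in anti-miR cells and 5.76 in control cells, 5.13-fold lower (1 probe set). This probe set passed the filter through the control array alone, so the fold is not an exact size. BLM, the helicase mutated in Bloom syndrome, read 6.30 in anti-miR cells and 7.30 in control cells, 2.005-fold lower (1 probe set). WRN lay below the median of the anti-miR array and BLM within its nonspecific range.

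The end-joining and single-strand repair genes among the members held the largest decrease seen at several probe sets. XRCC4, the scaffold of DNA ligase IV in end joining, read 4.73, 5.00 and 3.49 in anti-miR cells, against 7.19, 6.73 and 6.26 in control cells. The retained probe sets were 3.32-fold to 6.84-fold lower, and the gene was 5.00-fold lower (-2.32 ± 0.54, SD over 3 probe sets). Its gene value in anti-miR cells, 4.41, was below that array's median, so the fold is not an exact size. The probe set at 3.49 passed the filter through the control array alone. Under the filter on both arrays, which leaves it out, XRCC4 differed by -2.09 over 2 probe sets. A dim probe set differed by -0.44, and with it XRCC4 was 3.61-fold lower. XRCC5 and XRCC6 encode the large and small subunits of Ku, the ring that caps broken ends. XRCC5 read 9.47 and 7.14 in anti-miR cells, against 10.3 and 7.96 in control cells, and its probe sets gave the same difference, -0.82 each (1.76-fold lower). XRCC6 read 10.8 in anti-miR cells and 10.6 in control cells, a difference of 0.19 (1 probe set, of the type that can bind related messages). Of this obligate pair XRCC5 alone passed 1.5-fold, and the difference of XRCC6 was smaller than that of the poly-A controls. XRCC1, the scaffold of single-strand break repair, had probe sets at -0.80 and 0.25 that disagreed in sign, for a mean of -0.27 ± 0.74 (SD over 2 probe sets).

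**Figure D2:**
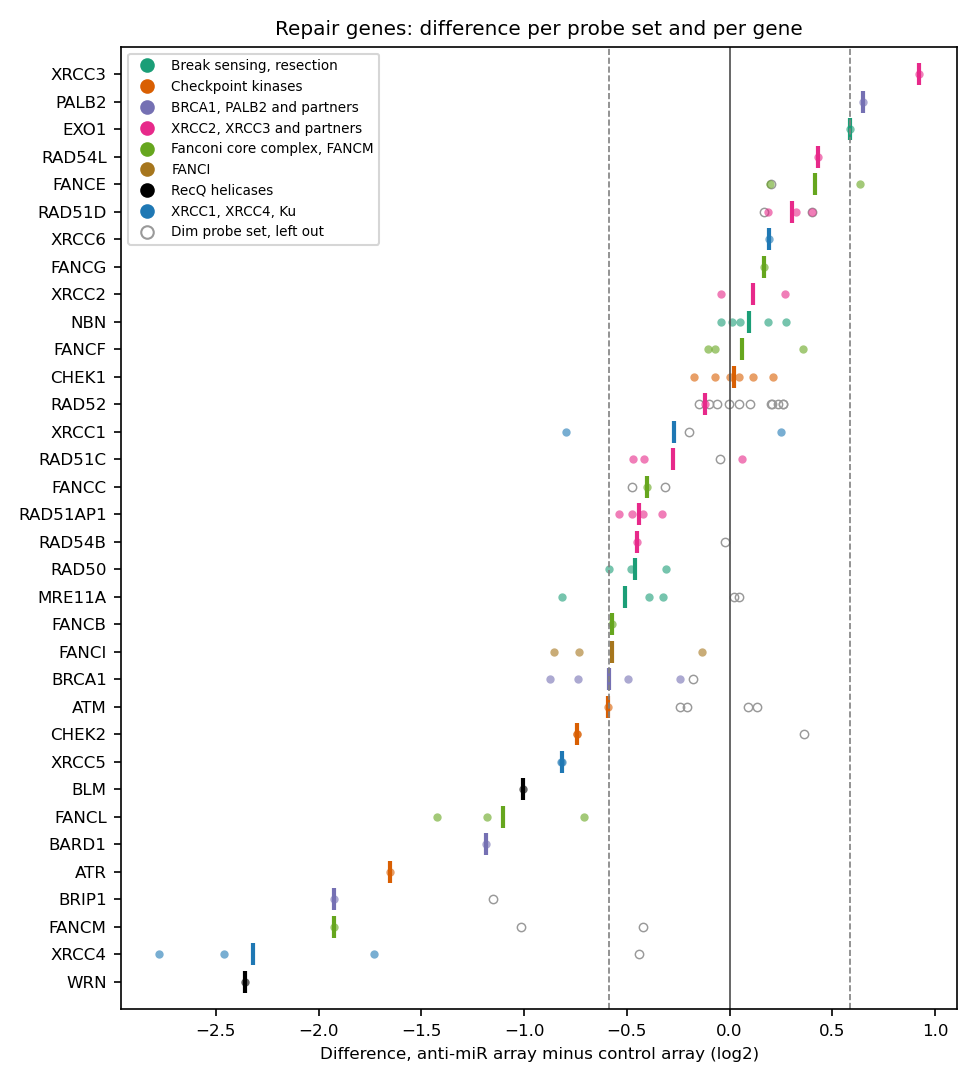
Difference between the arrays (anti-miR minus control, log2) for the measured repair genes, ordered by the gene mean; filled points are retained probe sets, open points dim probe sets left out, bars gene means, and dashed lines mark 1.5-fold. The 12 genes at the bottom lie beyond the left dashed line and 3 at the top beyond the right one. Retained probe sets of XRCC1, XRCC4 and FANCI spread most widely.

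The signal behind the lower calls was limited. In 10 of the 12 lower members no retained probe set was above the nonspecific range in anti-miR cells; the exceptions were XRCC5 and FANCL. In 5 of them (BARD1, BRIP1, FANCM, CHEK2 and WRN) every retained probe set passed the filter through the control array alone, so these had to differ to be counted. Asking for the median on both arrays left 29 measured members, of which 7 were lower (13% of all genes were under the same filter): BRCA1, XRCC4, XRCC5, FANCL, ATM, ATR and BLM. BRCA1 and FANCL had 3 probe sets each at or above the median on both arrays and XRCC4 and XRCC5 had 2 each, and all of these were lower in anti-miR cells. In bulk RNA, fewer cells of a type and less RNA per cell cannot be told apart.

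Gene span, the genomic length of a gene from its first to its last base, ran against the differences. The 12 lower members spanned 54.1 kb to 297 kb (median 112 kb), and the 3 higher members 17.8 kb to 42.0 kb. Across the 34 measured members longer genes had lower differences (Spearman's rho = -0.76), and without XRCC4 and WRN rho was -0.73 over 32. Across 11263 measured genes with a known span rho was -0.49. These are descriptions across genes read on the same 2 arrays, which are not independent replicates. Members are long, with a median span of 69.1 kb against 27.6 kb for all measured genes.

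The members were next set beside genes of like span. Above the median span, 12 of 29 members were lower (41.4%, against 25.4% of all such genes) and 2 were higher (6.90%, against 3.84%). At or below the median span, 0 of 5 members were lower, where 2.98% of all such genes were, and 1 of 5 was higher, where 12.6% were. Measured genes were also divided by span into 10 classes of equal size. In the 3 classes of longest genes, from 53.9 kb up, 12 of 20 members were lower (60.0%, against 36.0% of 3379 genes). This cut lies just below the shortest lower member, CHEK2 (54.1 kb), so it takes in every lower member. After the median of its own span class was subtracted from each gene, the median member differed by -0.17, with 10 lower (11% of all genes were) and 1 higher (6.71% of all genes were). BARD1, BRIP1, FANCM, CHEK2 and WRN are among these 10 and among the 12 lower members counted above. They passed the filter through the control array alone, so these counts of lower members are no independent result.

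Relative to the median of its span class, FANCM (65.0 kb) stood lowest, at -1.82 on the log2 scale. WRN (142 kb) stood at -1.72 and XRCC4 (297 kb) at -1.68. ATR (129 kb), BRIP1 (184 kb) and FANCL (82.1 kb) stood at -1.34, -1.28 and -0.999. BARD1 and CHEK2 stood at -0.87 and -0.64. FANCM, WRN, BRIP1, BARD1 and CHEK2 passed the filter through the control array alone, so their place below genes of like span is no independent result. ATM, BRCA1 and XRCC5 no longer passed 1.5-fold relative to genes of like span, with ATM at 0.05, BRCA1 at -0.27 and XRCC5 at -0.50. RAD51AP1 (21.2 kb), within 1.5-fold before, stood at -0.63 and passed it. The Fanconi genes FANCC (219 kb) and FANCB (184 kb) were higher than the median of genes as long, by 0.24 and 0.07. XRCC3 (17.8 kb) stood 0.67 above its class, and PALB2 (38.1 kb) and EXO1 (42.0 kb) stood 0.49 and 0.54 above.

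**Figure D3:**
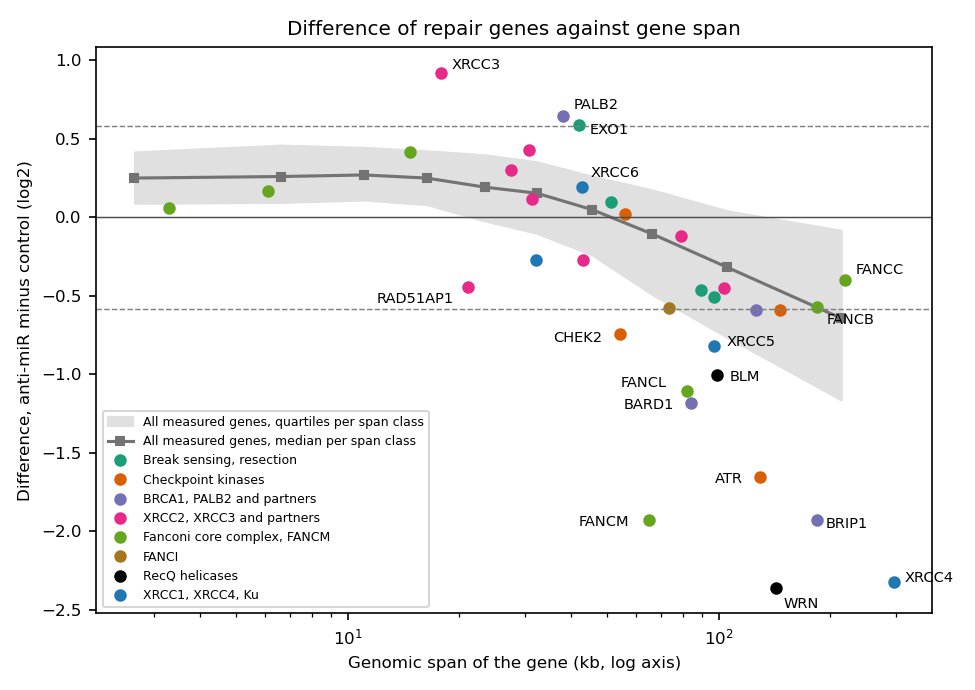
Difference between the arrays (anti-miR minus control, log2) against genomic span (kb, log axis) for the measured repair genes, over the median (squares) and quartiles (grey band) of all measured genes in each of 10 span classes. The grey median is 0.25 in the class of shortest genes and -0.64 in that of the longest. FANCM, WRN, ATR and BRIP1 are among the genes below the band. XRCC4 (297 kb) lies to the right of the band, which ends at 214 kb, and below the lower quartile of its class (-1.16).

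**Figure D4:**
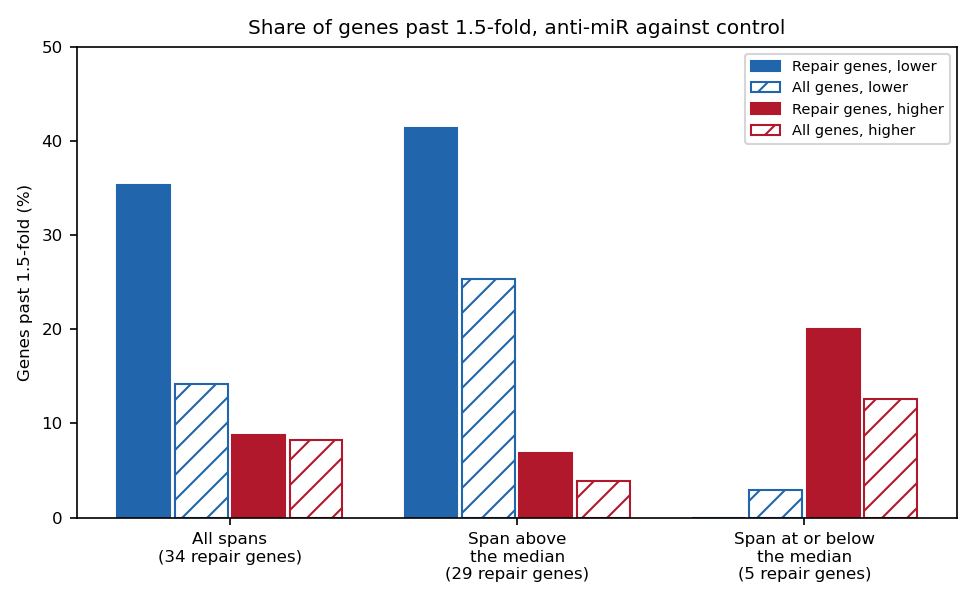
Share of genes at least 1.5-fold lower (blue) or higher (red) in anti-miR cells, for repair genes (filled) and all measured genes (hatched), over all spans and on either side of the median span. The lower share is 35.3% of repair genes and 14.2% of all genes, and above the median span 41.4% and 25.4%.

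The other genes of these pathways, outside the 39, held calls in both directions. Of 62 listed genes 59 were measured, of which 10 were higher (16.9%, against 8.23% of all measured genes) and 12 lower (20.3%, against 14.2%), with a median of 0.17 and a median span of 35.7 kb. The lower ones included proteins that work beside lower members. DNA2, the nuclease that resects ends with BLM or WRN, was 3.00-fold lower (-1.59 ± 0.55, SD over 2 probe sets). It stood at 4.21 in anti-miR cells, below that array's median, so the fold is not an exact size. TOPBP1, the activator of ATR, was 1.63-fold lower, and RAD1, of the clamp that recruits it, 1.52-fold. RIF1 and TP53BP1, which hold back resection, were 2.20-fold lower (7 probe sets, all lower) and 2.14-fold lower. TP53BP1 stood at 4.62 in anti-miR cells, also below the median. BABAM2 and UIMC1, of a complex that restrains BRCA1, were 1.84-fold and 1.68-fold lower. MMS22L (142 kb), which acts with TONSL at stalled forks, was 2.64-fold lower, at 4.57 in anti-miR cells, below the median. TONSL (15.7 kb) was 2.32-fold higher, and its level in control cells, 4.53, was below the median. POLQ, the polymerase of a backup end-joining route, was 1.92-fold lower, with probe sets at -1.55 and -0.33. RAD18, a ubiquitin ligase at stalled forks, was 1.83-fold lower, and USP1, which removes ubiquitin from the FANCI and FANCD2 pair, 1.85-fold. MCM9, a helicase that aids recombination, was 3.29-fold lower at its 1 retained probe set, at 3.86 in anti-miR cells, below the median, against 5.58 in control cells. With dim probe sets kept in, 10 genes of this list were lower and 6 higher; MCM9 (-0.53) and UIMC1 (-0.37) then fell short of 1.5-fold, as did REV1 (0.47), SWSAP1 (0.54), ZSWIM7 (0.46) and HELQ (0.27).

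The higher ones included partners of lower members. RPA2, a subunit of the protein that coats single-stranded DNA, was 1.92-fold higher (0.94 ± 0.11, SD over 3 probe sets). RMI1, the partner of BLM in dissolving crossed strands, was 1.70-fold higher (0.77 ± 0.27, SD over 4 probe sets). BLM (98.8 kb) and RMI1 (23.7 kb), which work in 1 complex, thus differed in opposite directions. FAAP24 (5.99 kb) and CENPX (4.18 kb), which bind FANCM (65.0 kb), were 1.51-fold higher each, whereas FANCM was lower. Each had 1 probe set just past the threshold, at 0.593 and 0.597, in span classes whose medians were 0.26 and 0.25. FAAP24 (5.60 in anti-miR cells, 5.01 in control cells) lay within the nonspecific range on both arrays. SWSAP1 and ZSWIM7, which form a complex that promotes recombination, were 1.74-fold and 1.56-fold higher. HELQ, a helicase, was 1.59-fold and REV1, a translesion polymerase, 1.53-fold higher. RAD9A (6.43 kb), of the same clamp as RAD1 (10.2 kb), was 1.52-fold higher, the opposite of its partner. In each of these contrasts between partners, and in that of TONSL and MMS22L, the higher gene was the shorter. They are selected pairs, and FANCM passed the filter through the control array alone. Other partners in the list went the other way, the longer gene having the higher difference. USP1 differed by -0.89 and its longer cofactor WDR48 by 0.26. SMC6 differed by -0.42 and its longer partner SMC5 by 0.24. Of these, only USP1 passed 1.5-fold. The part of gene span in the contrasts between partners was not tested.

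Counts were also made for pathways that border on recombination, beside 8.23% higher and 14.2% lower of all measured genes. The 1 gene named in each list is that of largest absolute difference. Of 8 measured end-joining genes outside the members 2 were higher and 2 lower (25% each). PRKDC, the kinase that Ku brings to breaks, was 4.02-fold lower (-2.01 ± 0.02, SD over 3 probe sets). Of 35 measured genes of excision and mismatch repair 5 were higher and 6 lower, with a median of 0.16, and MSH3 was 4.07-fold lower. Of 37 replication genes 4 were higher (10.8%) and 7 lower (18.9%), with a median of 0.15, and PRIM2 was 2.81-fold lower. Of 27 measured mitosis genes 4 were higher (14.8%) and 3 lower (11.1%), with a median of 0.23, and KIF20A was 2.02-fold higher. The median spans of these lists were 13.9, 31.0, 33.7 and 22.8 kb, all below that of the members. Relative to span classes their medians were -0.14, 0.07, -0.0058 and 0.06, and that of the members was -0.17.

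Promoter windows were searched for short words bound by cell-cycle and general factors, and 4 of them are printed because they belong to the members with the largest decreases and increases for which a window was at hand. Each runs from 250 bases before to 50 bases after the start of the gene, 5′ to 3′ on the strand of the gene, from RefSeq on GRCh38.p14. Capitals mark the NF-Y word CCAAT or its complement ATTGG. XRCC4 lies at chr5:83077297-83077596 (plus strand), FANCM at chr14:45135680-45135979 (plus), XRCC3 at chr14:103715402-103715701 (minus) and PALB2 at chr16:23641261-23641560 (minus).
XRCC4: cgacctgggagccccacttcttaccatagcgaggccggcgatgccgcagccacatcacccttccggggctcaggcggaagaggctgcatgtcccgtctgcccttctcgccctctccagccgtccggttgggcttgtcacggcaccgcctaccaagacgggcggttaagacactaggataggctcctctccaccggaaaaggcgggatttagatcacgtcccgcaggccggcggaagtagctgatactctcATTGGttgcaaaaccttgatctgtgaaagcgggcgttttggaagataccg
FANCM: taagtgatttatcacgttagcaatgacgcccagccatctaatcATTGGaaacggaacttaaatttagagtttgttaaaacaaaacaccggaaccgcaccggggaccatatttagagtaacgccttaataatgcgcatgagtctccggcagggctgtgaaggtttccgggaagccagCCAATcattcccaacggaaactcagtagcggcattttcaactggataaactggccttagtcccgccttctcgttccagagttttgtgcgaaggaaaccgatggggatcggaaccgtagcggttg
XRCC3: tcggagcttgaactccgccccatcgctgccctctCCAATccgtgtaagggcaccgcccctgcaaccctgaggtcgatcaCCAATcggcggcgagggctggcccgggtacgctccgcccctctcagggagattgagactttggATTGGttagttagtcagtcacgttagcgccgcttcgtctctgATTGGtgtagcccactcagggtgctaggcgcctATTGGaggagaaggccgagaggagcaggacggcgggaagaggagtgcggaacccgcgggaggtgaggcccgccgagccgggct
PALB2: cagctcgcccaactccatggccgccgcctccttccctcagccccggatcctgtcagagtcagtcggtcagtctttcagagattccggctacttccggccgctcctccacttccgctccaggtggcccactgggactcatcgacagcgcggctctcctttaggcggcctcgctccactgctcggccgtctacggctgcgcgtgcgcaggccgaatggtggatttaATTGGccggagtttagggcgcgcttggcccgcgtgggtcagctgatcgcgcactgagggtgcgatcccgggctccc
The CCAAT word occurred 1 time for XRCC4, 2 for FANCM, 5 for XRCC3 and 1 for PALB2, so both directions of difference were found beside it.

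Of the 39 members 34 had a window in the table, 46 windows in all, since a gene can have several starts. These are not the 34 measured members. BRCA2, FANCA, FANCD2, RBBP8 and RAD51B are included, and XRCC5, FANCI, NBN, RAD54B and WRN had no window. The E2F words TTTCCCGC, TTTCGCGC, TTTGCCGC and TTTGGCGC, searched on both strands, were in 6 of 46 member windows (13.0%). They were in 3.31% of all 35116 windows and in 4.81% of the 13493 windows of measured genes. The windows of FANCA and FANCD2 are among the 6, so the member share is not one over measured members alone. The 10 lower members with a window had 12 windows, of which 0 held an E2F word, a count near that background, and of 4 windows of higher members that of EXO1 did. CCAAT was in 21 member windows (45.7%, against 34.6% of all and 34.6% for measured genes), and in 8 of the 12 windows of lower members. The CHR word TTTGAA was in 4 member windows (8.70%, against 15.2% of all and 10.6% for measured genes). No word contains another. A match says only that the letters are present.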

How the data were processed

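RNA of GFP-SAS cells (10 ng of total RNA per the labels' protocols) was measured on 1 Affymetrix 3' expression array per treatment. Per the submitters' processing notes, the deposited log2 values, 1 per probe set, come from RMA run by the authors; no source used here gives its version or says which arrays were normalized in 1 run. RMA evens out array distributions, so a shift shared by most genes would be removed. The table held 49386 probe sets, of which 93 array controls were left out. GEO's platform annotation paired 45253 others with 1 symbol and 1327 with several, and 45172 matched RefSeq (GRCh38.p14) by Entrez ID, which gave symbols and gene spans; MRE11A is MRE11 there. No genome build is named in the files; printed coordinates are those of the RefSeq sequences on GRCh38.p14. After the median filter, 24127 probe sets of 11272 genes remained. The SD between probe sets of a gene, pooled over 6263 genes, was 0.29; it holds no variation between cultures. No count model or p-value was used, and precision is limited by the number of arrays.

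All members were accounted for by role; those past 1.5-fold are given with each retained probe set, with up to 2 others per role of highest level, and the remainder by gene means. Members and lists were chosen with earlier results of these data known. Alternatives were no filter, a filter on the mean of both arrays, a filter at the 75th percentile, the highest or the median probe set, centring on the median gene, on span classes or on a lowess trend (fraction 0.3), plain _at probe sets and a 2-fold threshold. A filter on both arrays was added after seeing the data. Tools were pandas 2.3.3, numpy 2.4.6, scipy 1.17.1, statsmodels 0.14.6 and matplotlib 3.10.9 under Python 3.11.15, and the counting was tested on simulated data.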

Additional observations from a re-analysis of the deposited data

Results flagged for a closer look

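The poly-A controls, which enter no gene comparison, stood 0.32 higher in anti-miR cells (6.29 on the anti-miR array, 5.97 on the control array, mean of 12 probe sets). A probe set annotated to both XRCC6 and its pseudogene XRCC6P2, left out of the gene values, was higher on the anti-miR array by 0.12 (11.3 against 11.1), beside 0.19 at the probe set of XRCC6 alone. Their part in the differences of the repair genes was not tested.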

How the results depend on the processing

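With 1 array per treatment no array could be left out. No paired analysis was possible because there is 1 sample in each group. Against 12 lower and 3 higher members of 34, a filter at the 75th percentile gave 6 lower of 19 measured, and the filter on both arrays, added after seeing the data, 7 lower of 29; fewer genes were measured in both. Higher members numbered 1 when centred on the median gene, 1 when centred on span classes, 1 with a lowess trend and 0 at 2-fold; XRCC3 was past 1.5-fold in all 8 alternatives that gave it a value. Plain _at probe sets left 8 members, with 1 higher, 2 lower and a median of -0.049. Of all genes, against 928 higher and 1602 lower, 499 were higher when centred on the median gene and 547 with a lowess trend, 139 higher and 787 lower at 2-fold, and 317 higher and 507 lower among 3407 genes with plain _at probe sets. The difference of ATM reversed to 0.052 when centred on span classes, which subtracts the median of the longest genes. XRCC4, FANCL, BLM and ATR were past 1.5-fold in every alternative that measured them, 8 or 9 each, the filter on both arrays included; BARD1, BRIP1, FANCM, WRN and CHEK2 have no value under that filter. Signal over background limits the sizes of these folds, and no detection call came with the values.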
